A study of Mus musculus with 10 samples.

Results

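The 10 amino acid transporter genes of activated T cells described here were examined in tumor-infiltrating Pmel CD8+ T cells, in which MIT-BATF libraries were compared with MIT-Empty libraries. The members were listed by gene name: Slc3a2, Slc7a5, Slc7a6, Slc7a11, Slc1a5, Slc1a4, Slc38a1, Slc38a2, Slc7a1 and Slc43a1, which are 10 of the 34932 genes with a matched transcript. Of these, 9 passed the expression filter, as did 11781 genes in all, and Slc43a1 did not. MIT-BATF cells were Pmel T cells given mouse BATF by the retroviral vector MSCV-IRES-Thy1.1, called MIT, and MIT-Empty cells carried the same vector without it. Both groups came from Pmel Thy1.2/Thy1.2 splenocytes, whose transgenic T cell receptor recognizes the melanoma antigen gp100, and both were activated by this peptide with IL-2 at 10 IU/mL. After transduction both were grown with IL-7 and IL-15, each at 10 ng/mL, and with IL-2 at 50 IU/mL. The transduced cells were transferred into adult Ly5.1 hosts bearing tumors of the mouse melanoma line B16-F10. Mice of both sexes were used, with the sex of each mouse not given, and no irradiation of these hosts is described. At day 7 after transfer, 2000 live Thy1.1+ cells per mouse were sorted from the tumors, with 5 mice in each group, and SMART-Seq2 libraries, which do not record strand, were sequenced as 37 bp read pairs.

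T cells that leave quiescence take up more amino acids, both to build protein and to keep the kinase complex mTORC1 active, which senses leucine, arginine and glutamine. Slc3a2 (CD98) is the heavy chain that brings several light chains to the cell surface. Its partners include Slc7a5 (LAT1), which imports leucine and other large neutral amino acids, Slc7a6 (y+LAT2), which exchanges cationic for neutral amino acids, and Slc7a11 (xCT), which imports cystine for glutathione in exchange for glutamate. Slc1a5 (ASCT2) exchanges neutral amino acids including glutamine, Slc38a1 and Slc38a2 (SNAT1 and SNAT2) bring in glutamine and alanine with sodium, and Slc7a1 (CAT1) imports arginine and lysine.

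Before the members are compared, several properties of the libraries matter. Gene by gene, the counts of replicates 4 and 5 lay within those of replicates 2 and 3 in both groups. The contained library exceeded its partner in 0.286% to 0.661% of genes with at least 5 counts, against at least 3.54% in every other pair. The reads behind them were not examined, and if nested counts are shared reads, p-values and SDs over the 10 libraries are too small, so a fit with shared reads counted once is given beside the fit on deposited counts. Depth was 10702740 to 34102086 counts in MIT-BATF libraries and 6534472 to 21355657 in MIT-Empty libraries. Batf itself was at 21.9 ± 5.54 CPM (counts scaled to library size) in MIT-BATF against 29.2 ± 14.8 CPM in MIT-Empty (SD, n = 5; log2 fold change -0.41, adjusted p = 0.522 by edgeR's quasi-likelihood test), so it gave no check of the labels, and it is unknown if Batf counts include RNA of the vector. The groups are therefore called by their labels alone. Thy1, the vector's surface marker in its Thy1.1 form, stood at 276 ± 77.8 CPM in MIT-BATF against 263 ± 27.8 CPM in MIT-Empty. All 8 CD8 T cell markers were measured and their summed level was 3044 to 5326 CPM in MIT-BATF against 3558 to 5807 CPM in MIT-Empty. The summed level of 8 melanoma markers was 14.4 to 29.5 CPM in MIT-BATF against 39.7 to 1738 CPM in MIT-Empty, highest in MIT-Empty replicates 4 and 2, and that of 12 macrophage and monocyte markers was 25.5 to 81.9 CPM in MIT-BATF against 43.1 to 290 CPM in MIT-Empty. Of the melanoma markers tested, 6 of 6 were lower in MIT-BATF at an adjusted p of 0.05 on deposited counts and 2 of 5 with shared reads counted once, led by Tyrp1 (log2 fold change -6.11, adjusted p = 0.00498 and 0.0288 by edgeR), and of the macrophage markers 4 of 10 and 1 of 10. No melanoma or macrophage marker was at 0 in all libraries of either group. Dendritic cell markers summed to 33.3 to 45.3 CPM in MIT-BATF against 39.5 to 121 CPM in MIT-Empty, fibroblast and endothelial markers to 6.58 to 13.5 CPM against 13.9 to 95.8 CPM, and globin genes to 0 to 488 CPM against 0 to 72.7 CPM. Of the 4 dendritic cell markers tested, Xcr1 was higher in MIT-BATF (log2 fold change 2.06, adjusted p = 0.00067, and 0.00911 with shared reads counted once, by edgeR) and H2-Aa was lower (log2 fold change -1.96, adjusted p = 0.0054 and 0.0163 by edgeR). Neutrophil, B cell and CD4 T cell markers each summed to at most 4.64 CPM in any library, and Cd79b, the 1 B cell marker tested, was higher by 1.79 on the log2 scale on deposited counts (edgeR adjusted p = 0.0175, and 0.128 with shared reads counted once). Tyrp1, H2-Aa and Cd79b were named as the most abundant marker of their cell type, and Xcr1 after its values were seen. None of the CD8 T cell, endothelial or globin genes tested passed by edgeR in either fit, the globin genes being tested on deposited counts only. The part that these other cells' RNA has in the members' values was not tested. Replicate 1 of MIT-BATF had 33.2% of its counts in mitochondrial genes, against 11.5% to 15.1% in the other MIT-BATF libraries and 15.5% to 23.1% in MIT-Empty. In such bulk libraries, fewer cells with a transcript and less of it per cell cannot be told apart.

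By edgeR's quasi-likelihood test, none of the 9 transporter genes tested passed an adjusted p of 0.05 in either fit. Among all genes tested, 4.58% (540 of 11781) passed with deposited counts and 1.26% (140 of 11131) with shared reads counted once. At an unadjusted p under 0.05 there were 2 of 9 members in each fit, Slc3a2 and Slc1a5, against 18.1% of all genes with deposited counts and 10.6% with shared reads counted once. DESeq2 called 1 member, Slc3a2, on deposited counts (7.78% of all genes) and 0 with shared reads counted once (2.61%), and limma voom called 0. On protein-coding transcripts alone, 0 of 8 members passed by edgeR in either fit, against 3.48% and 1.01% of all genes. The median log2 fold change of the 9 members was 0.01 with deposited counts and 0.05 with shared reads counted once, against 0.01 and -0.00 over all genes tested. The 95% interval lay inside a 2-fold change in either direction for 7 of the 9 members in both fits, the exceptions being Slc1a4 and Slc7a11, which had few counts. The plot of CPM by library gives each member's values, and the plot of log2 fold changes sets both fits side by side.

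**Figure D1:**
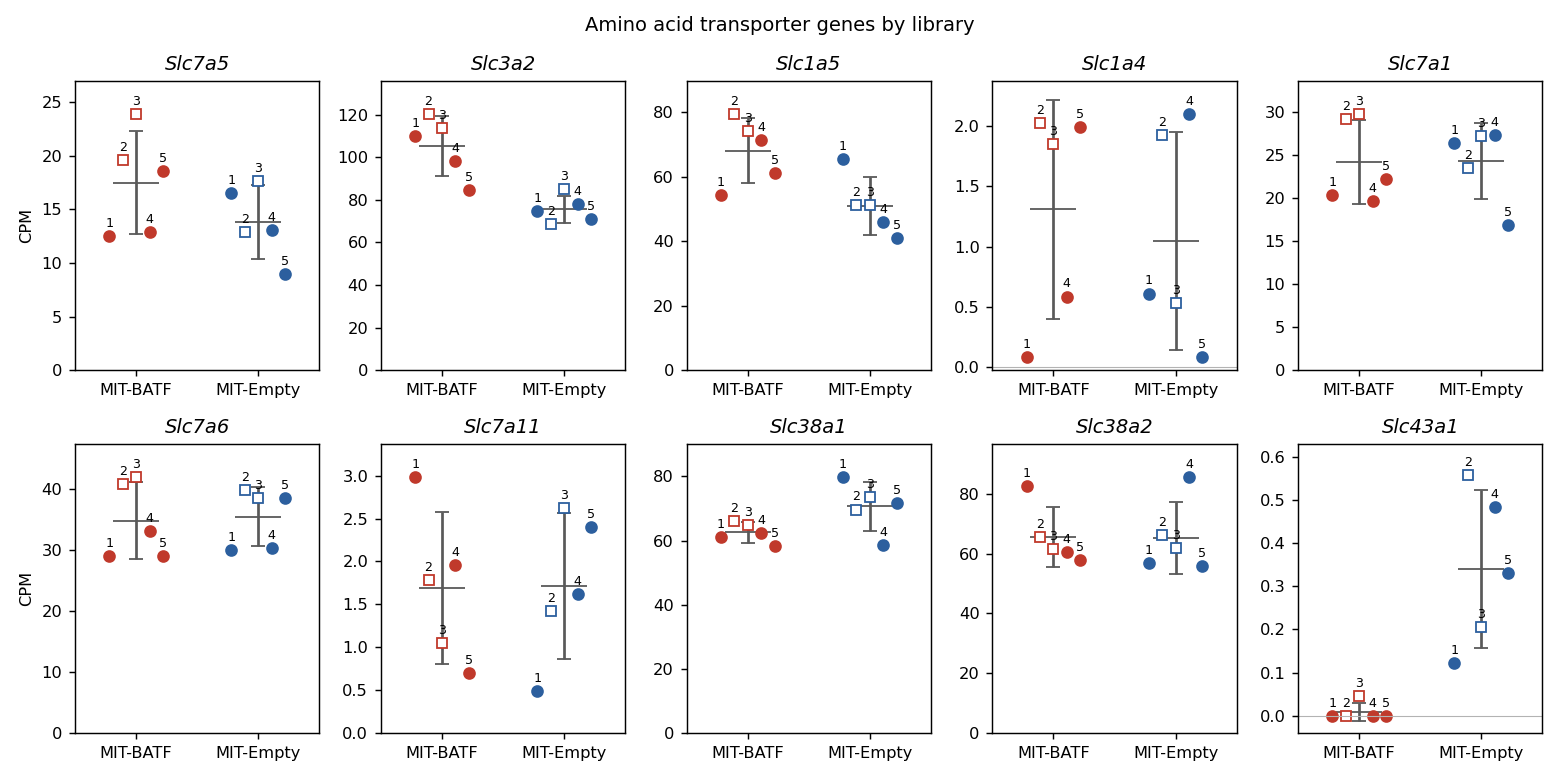
Level of each transporter gene in each library, in CPM (counts scaled to TMM-adjusted library size), MIT-BATF left and MIT-Empty right. Numbers are replicates, open squares are the libraries whose counts contain those of another (replicates 2 and 3), and bars are the mean ± SD of 5 libraries. Slc3a2 was at 84.6 to 120 CPM in MIT-BATF against 68.5 to 85.1 CPM in MIT-Empty, while each of the other 8 tested genes also overlapped between the groups and Slc43a1 was at or near 0 in MIT-BATF.

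**Figure D2:**
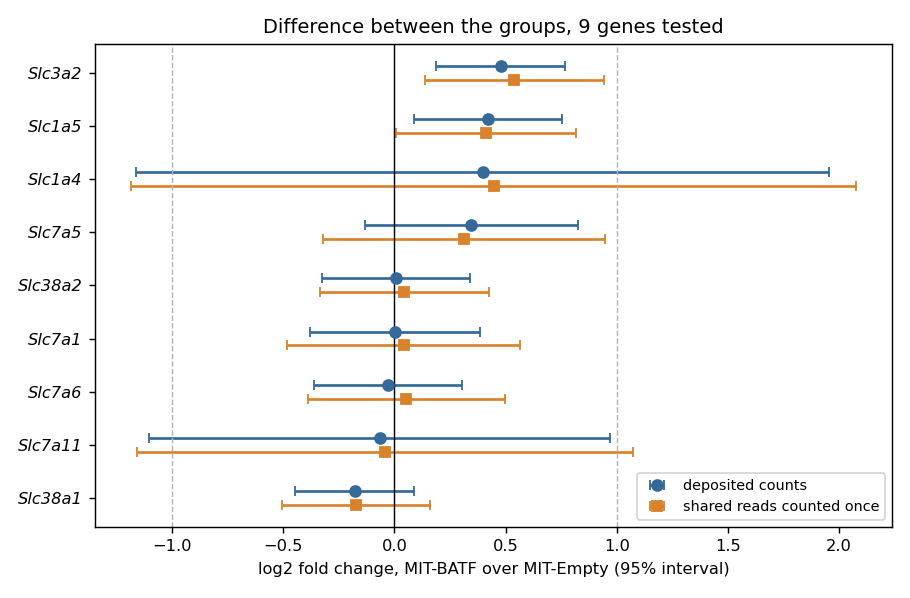
The 9 genes tested, with their log2 fold change (MIT-BATF over MIT-Empty) and 95% intervals, from deposited counts (circles) and with shared reads counted once (squares). The solid line is no difference and the dashed lines mark a 2-fold change. Slc3a2 had the highest estimate in both fits (0.48 and 0.54), and Slc38a1 the lowest (-0.18 and -0.17).

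Slc3a2, the heavy chain, was the most abundant of the 10 genes. MIT-BATF replicates 1 to 5 held 110, 120, 114, 98.2 and 84.6 CPM of Slc3a2, and MIT-Empty replicates 1 to 5 held 74.9, 68.5, 85.1, 78.1 and 71.2 CPM. Of the MIT-BATF libraries, 4 of 5 lay above every MIT-Empty library, and replicate 5 lay just below MIT-Empty replicate 3. The mean was 105 ± 14.1 CPM in MIT-BATF against 75.6 ± 6.45 CPM in MIT-Empty (SD, n = 5). This is a log2 fold change of 0.48 (95% interval 0.19 to 0.77), or 1.39-fold, with an adjusted p of 0.0587 by edgeR's quasi-likelihood test. With shared reads counted once it was 0.54 (0.14 to 0.94), with an adjusted p of 0.239 by the same test. It passed by DESeq2 (adjusted p = 0.0108) and without MIT-BATF replicate 5 (edgeR adjusted p = 0.029), both on deposited counts. Without MIT-Empty replicates 2 and 4, which had the most melanoma marker counts, the difference was 0.45 (edgeR adjusted p = 0.237), and without MIT-BATF replicate 1 it was 0.47 (edgeR adjusted p = 0.053). MIT-Empty replicates 1, 3 and 5 still had melanoma marker sums of 116, 52.7 and 39.7 CPM, against at most 29.5 CPM in MIT-BATF. The fit without MIT-Empty replicates 2 and 4 therefore keeps a melanoma difference between the groups, and it has fewer libraries. The part that melanoma RNA has in the Slc3a2 difference was not tested. Slc3a2 lies on chromosome 19 of GRCm38 (mm10), minus strand, at chr19:8706882-8723369. Salmon placed 96.3% to 99.0% of its counts on protein-coding transcripts in MIT-BATF and 96.5% to 98.6% in MIT-Empty.

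Slc7a5, the LAT1 light chain, was lower than Slc3a2 by about an order of magnitude per length. MIT-BATF replicates 1 to 5 held 12.5, 19.6, 23.9, 12.9 and 18.6 CPM, and MIT-Empty replicates 1 to 5 held 16.5, 12.9, 17.6, 13.1 and 8.96 CPM. MIT-BATF replicates 2, 3 and 5 lay above every MIT-Empty library, and MIT-BATF replicates 1 and 4 fell within the MIT-Empty range. The log2 fold change was 0.35 (95% interval -0.13 to 0.82), with an adjusted p of 0.461 by edgeR's quasi-likelihood test. The gene (chr8:121881150-121907694, minus strand) lies wholly inside Gm20388 on the other strand, which reached at most 10.8 CPM in MIT-BATF against 6 CPM in MIT-Empty, and without strand the reads of both cannot be told apart. Slc7a6, the y+LAT2 light chain (chr8:106168857-106198706, plus strand), was at 34.7 ± 6.30 CPM in MIT-BATF against 35.4 ± 4.86 CPM in MIT-Empty (SD, n = 5). Its log2 fold change was -0.03 (95% interval -0.36 to 0.30, adjusted p = 0.955 by edgeR's quasi-likelihood test), and the groups overlapped.

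Slc7a11, the xCT light chain, had 13 to 45 counts per library in MIT-BATF and 4 to 64 in MIT-Empty. Nearly all of them lay on a transcript annotated as a retained intron, Slc7a11-202, which took 92.2% to 100% of the gene's counts in MIT-BATF and 89.5% to 100% in MIT-Empty. Only 36.2% of the bases of that transcript are in exons of the coding transcripts. The coding transcripts were at 0 counts in all 5 MIT-BATF libraries and at 7.09 counts summed over the 5 MIT-Empty libraries as deposited, so the gene's level is mostly that of this retained intron transcript. Gm37854, an antisense gene, overlaps Slc7a11 over 8812 bases and Gm37498, on the same strand, over 4002 bases, and without strand the reads of Slc7a11 and its antisense partner cannot be told apart. The log2 fold change over all transcripts was -0.07 (95% interval -1.10 to 0.97, adjusted p = 0.968 by edgeR's quasi-likelihood test).

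Per length and over coding transcripts, RNA of the heavy chain exceeded the summed RNA of the light chains among the members in every library. Other light chains were not summed. The ratio of Slc3a2 TPM (transcript abundance scaled to length and library total) to the summed TPM of Slc7a5, Slc7a6 and Slc7a11 was 6.17, 3.37, 2.86, 3.59 and 3.06 in MIT-BATF replicates 1 to 5. It was 2.69, 2.09, 2.11, 2.95 and 1.51 in MIT-Empty replicates 1 to 5. MIT-BATF replicate 1, the library with 33.2% mitochondrial counts, had the highest ratio, and MIT-Empty replicate 4 lay above MIT-BATF replicate 3, so the groups overlapped. Within a library these ratios need no scaling between libraries, and no test was run on them. Slc7a5 made up 23.2% to 36.1% of the light chains' TPM in MIT-BATF and 9.24% to 31.2% in MIT-Empty, the rest being almost wholly Slc7a6.

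**Figure D3:**
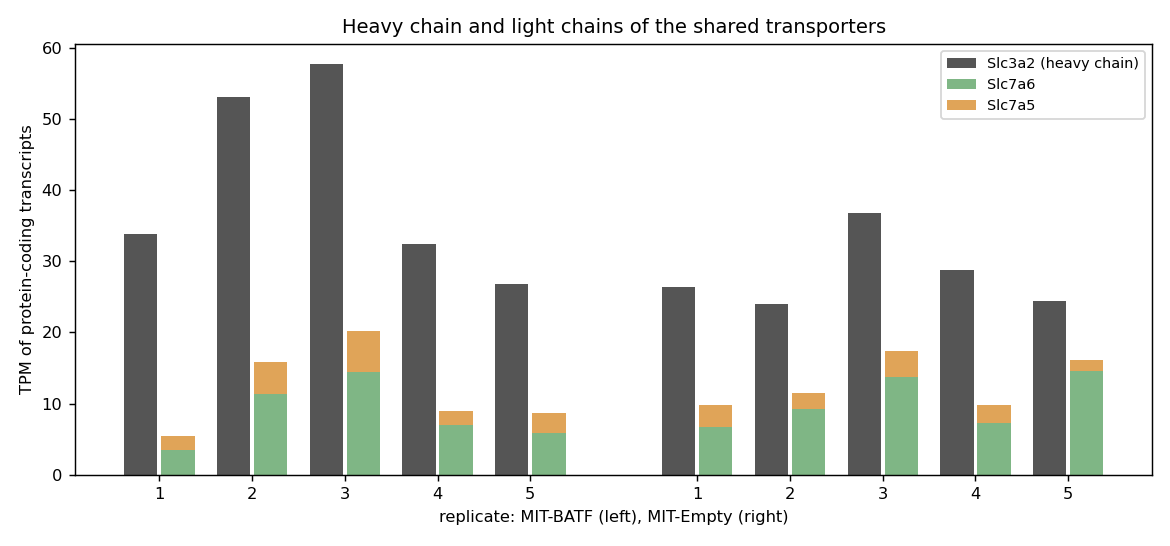
TPM of the protein-coding transcripts of Slc3a2 (grey) beside those of Slc7a6 and Slc7a5 (stacked), for MIT-BATF replicates 1 to 5 on the left and MIT-Empty replicates 1 to 5 on the right. The heavy chain stood above the sum of both light chains in all 10 libraries, at 26.8 to 57.6 TPM in MIT-BATF and 23.9 to 36.8 TPM in MIT-Empty.

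Slc1a5, the ASCT2 exchanger (chr7:16781340-16798274, plus strand), was second to Slc3a2 in unadjusted p. MIT-BATF replicates 1 to 5 held 54.4, 79.3, 74.1, 71.5 and 61.2 CPM, and MIT-Empty replicates 1 to 5 held 65.4, 51.1, 51.1, 45.9 and 41.1 CPM. MIT-BATF replicates 2, 3 and 4 lay above every MIT-Empty library, while MIT-Empty replicate 1 lay above MIT-BATF replicates 1 and 5. The log2 fold change was 0.42 (95% interval 0.09 to 0.75), with an adjusted p of 0.159 by edgeR's quasi-likelihood test, and with shared reads counted once it was 0.41 (0.01 to 0.82; adjusted p = 0.456). The split of its counts among transcripts varied widely, as the plot of protein-coding shares shows. Coding transcripts held 81.4%, 40.1%, 45.1%, 59.7% and 39% of its counts in MIT-BATF replicates 1 to 5, and 35.4%, 29.6%, 52.9%, 0% and 57.5% in MIT-Empty replicates 1 to 5. Most other counts lay on Slc1a5-202, a retained intron transcript that shares 97.5% of its bases with coding exons, so the split between them is uncertain. On protein-coding transcripts alone the log2 fold change of Slc1a5 was 0.97 (95% interval -0.24 to 2.18), with an adjusted p of 0.418 by edgeR's quasi-likelihood test.

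**Figure D4:**
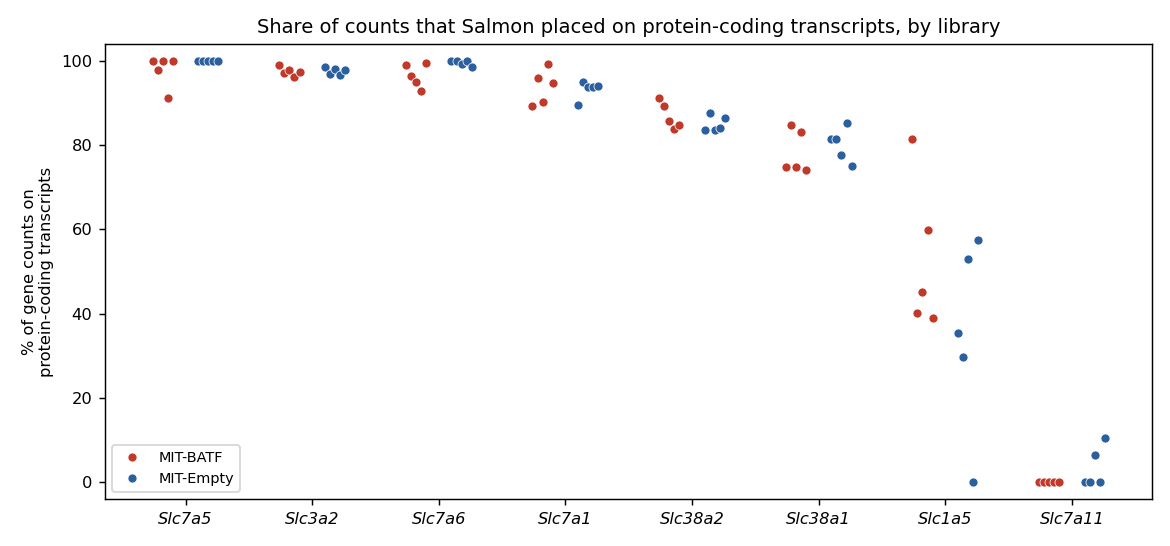
Percent of each gene's counts that Salmon placed on protein-coding transcripts, 1 point per library, MIT-BATF left and MIT-Empty right within each gene. Slc3a2, Slc7a5 and Slc7a6 were above 90% in every library, Slc1a5 ran from 39% to 81.4% in MIT-BATF and from 0% to 57.5% in MIT-Empty, and Slc7a11 was at 0% in every MIT-BATF library and at most 10.5% in MIT-Empty.

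Slc1a4 (ASCT1), which exchanges alanine, serine and cysteine, had 1, 50, 80, 6 and 37 counts in MIT-BATF replicates 1 to 5 and 5, 38, 13, 13 and 1 in MIT-Empty replicates 1 to 5. Libraries of both groups reached down to 1 count. The log2 fold change was 0.40 (95% interval -1.16 to 1.96, adjusted p = 0.835 by edgeR's quasi-likelihood test), an interval that spans a 2-fold change in both directions. Without MIT-Empty replicates 2 and 4 together it was 1.71 (edgeR adjusted p = 0.41), so the estimate rests on which libraries enter.

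Slc38a1 (SNAT1) was the tested member with the lowest estimate in MIT-BATF. MIT-BATF replicates 1 to 5 held 61.2, 66.2, 64.9, 62.3 and 58.2 CPM, and MIT-Empty replicates 1 to 5 held 79.8, 69.7, 73.6, 58.7 and 71.7 CPM. All MIT-BATF libraries were below MIT-Empty replicates 1, 2, 3 and 5, and MIT-Empty replicate 4 lay among them. The log2 fold change was -0.18 (95% interval -0.45 to 0.09, adjusted p = 0.508 by edgeR's quasi-likelihood test). Slc38a2 (SNAT2), its neighbour on chromosome 15 (chr15:96687392-96699730, against chr15:96571418-96642913 for Slc38a1, both on the minus strand), is known to be induced when amino acids run short. Its level was 65.6 ± 9.94 CPM in MIT-BATF against 65.3 ± 12.1 CPM in MIT-Empty (SD, n = 5; log2 fold change 0.01, 95% interval -0.32 to 0.34, adjusted p = 0.989 by edgeR's quasi-likelihood test). Its highest libraries were MIT-BATF replicate 1 at 82.7 CPM and MIT-Empty replicate 4 at 85.7 CPM.

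Slc7a1, the arginine transporter CAT1 (chr5:148327410-148399904, minus strand), was at 24.2 ± 4.86 CPM in MIT-BATF against 24.2 ± 4.42 CPM in MIT-Empty (SD, n = 5). Its log2 fold change was 0.00 (95% interval -0.38 to 0.38, adjusted p = 0.995 by edgeR's quasi-likelihood test). The higher libraries were replicates 2 and 3 of MIT-BATF, and replicates 1, 3 and 4 of MIT-Empty.

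Slc43a1 (LAT3), a transporter of branched-chain amino acids and phenylalanine, did not pass the expression filter. It had 0, 0, 2, 0 and 0 counts in MIT-BATF replicates 1 to 5 and 1, 11, 5, 3 and 4 counts in MIT-Empty replicates 1 to 5. Its CPM did not overlap between the groups with deposited counts, and it did overlap with shared reads counted once. The groups did not overlap on deposited counts for 6.45% of the genes that passed the filter. Slc43a1 is not among those genes, so this share is not a measure for a gene with so few counts. With shared reads counted once, MIT-BATF held 2 counts and MIT-Empty 17, a ratio of depth-scaled rates of 0.085 (95% exact interval 0.00953 to 0.358, counting error only, without the spread between mice). The highest libraries were MIT-Empty replicates 2 and 4, at 0.558 and 0.485 CPM, which also had the highest melanoma marker sums of 577 and 1738 CPM, and the part of melanoma RNA in this difference was not tested. With no expression filter, edgeR called Slc43a1 at an adjusted p of 0.0389 on deposited counts, where 3.3% of all genes passed.

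Promoter windows of 250 bases before to 50 from the annotated start were held for 7 of the 10 members, with 9 windows in all. They were searched on both strands for the AP-1 motif TGANTCA, to which BATF binds together with JUN partners, the core of the amino acid response element, TGATGNAA, and the E-box CACGTG. The motifs are present in 7.81%, 3.97% and 7.15% of 32851 mouse promoters of the same length. Among the members, Slc7a1 held 1 AP-1 match, Slc7a11 held 2 response element cores, Slc1a4 held 1 core and Slc43a1 held 1 E-box, while Slc3a2, Slc7a6 and Slc38a2 held none. The Slc3a2 window, at chr19:8713848-8714147, lies inside the gene, at the start of Slc3a2-201. That transcript had 19.4% of the gene's counts in MIT-BATF and 21.8% in MIT-Empty. The stretches before the starts of Slc3a2-207 and of Slc3a2-202, at the gene's outer end, were not searched. Slc3a2-207 had the most counts, 50.3% in MIT-BATF and 49.7% in MIT-Empty, and Slc3a2-202 had 27.6% and 26.1%. The matched stretches of Slc7a11, Slc1a4 and Slc7a1 are shown because they are where the members' promoters carry a motif of the factor delivered or of the amino acid response. They are RefSeq sequences of GRCm38.p6, read 5′ to 3′ on the gene's own (minus) strand, with the motif in capitals:
Slc7a11, chr3:50443634-50443713: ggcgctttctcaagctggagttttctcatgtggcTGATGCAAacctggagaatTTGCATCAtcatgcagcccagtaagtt
Slc1a4, chr11:20332674-20332753: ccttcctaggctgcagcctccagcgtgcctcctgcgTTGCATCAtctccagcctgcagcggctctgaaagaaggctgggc
Slc7a1, chr5:148399985-148400064: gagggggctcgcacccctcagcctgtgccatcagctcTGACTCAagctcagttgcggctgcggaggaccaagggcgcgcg
In Slc7a11 the cores begin at -66 and -47 from the start and run on opposite strands. The core of Slc1a4 begins at -4 and the AP-1 match of Slc7a1 at -123. These are matches of letters, and binding was not measured.

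Levels between members were compared as TPM of protein-coding transcripts, averaged over all 10 libraries. Slc3a2 was highest at 34.4 ± 11.9 TPM (SD, n = 10) and exceeded the next gene, Slc7a6 at 9.37 ± 3.95 TPM, in all 10 libraries. Slc7a6, Slc1a5 at 6.70 ± 3.42 TPM and Slc38a2 at 6.57 ± 1.25 TPM did not separate beyond their spread, since neighbours in this order kept their order in 8 and 7 of the 10 libraries, and Slc38a2 exceeded Slc38a1 in 7. Slc38a1 at 5.30 ± 1.38 TPM, Slc7a5 at 3.00 ± 1.29 TPM and Slc7a1 at 2.07 ± 0.69 TPM each exceeded the next gene in all 10 libraries. The place of Slc1a5 in this order rests on the uncertain split of its counts: over all its transcripts it was second at 15.7 ± 5.23 TPM, above Slc7a6 at 9.66 ± 4.13 TPM in 9 of 10 libraries. It also differed between the groups' means. On coding transcripts Slc1a5 was at 8.96 ± 2.31 TPM in MIT-BATF, just above Slc7a6 at 8.42 ± 4.41 TPM, and at 4.44 ± 2.87 TPM in MIT-Empty (SD, n = 5), below Slc7a6 at 10.3 ± 3.64, Slc38a2 at 6.33 ± 1.09 and Slc38a1 at 5.37 ± 1.11 TPM. Slc1a4 averaged 0.19 TPM, Slc43a1 0.038 TPM and Slc7a11 0.0024 TPM. Slc3a2 alone made up 50.4% to 55.6% of the members' summed coding TPM in MIT-BATF and 42.2% to 54.5% in MIT-Empty.

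The amino acid genes around the transporters were read from 7 lists of 142 genes: other transporters, the ATF4 response, mTORC1 amino acid sensing, cytosolic aminoacyl-tRNA synthetases, serine and one-carbon metabolism, amino acid breakdown, and cystine and glutathione. Of the 117 tested, 3 (2.56%) passed by edgeR's quasi-likelihood test on deposited counts and 0 of 115 passed with shared reads counted once, against 4.58% and 1.26% of all genes. At an unadjusted p under 0.05 there were 16 and 9, against 18.1% and 10.6% of all genes. DESeq2 called 5 on deposited counts and 0 with shared reads counted once, where it called 7.78% and 2.61% of all genes.

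Slc38a6, another member of the SNAT family, averaged 122 ± 22.7 CPM in MIT-BATF against 320 ± 206 CPM in MIT-Empty (SD, n = 5). Every MIT-BATF library was below every MIT-Empty library on deposited counts, though not with shared reads counted once. On deposited counts the groups did not overlap for 6.45% of all genes tested, nor for Sesn3, Gls2, Dbt and Mios, described below. These 4 also overlapped with shared reads counted once. The log2 fold change of Slc38a6 was -1.38 (adjusted p = 0.0206 by edgeR's quasi-likelihood test) with deposited counts and -1.13 (adjusted p = 0.2) with shared reads counted once. MIT-Empty replicate 4, which also had the most melanoma marker counts, held 673 CPM of it. Without that library the difference was -0.91 (edgeR adjusted p = 0.0207) on deposited counts and -0.53 (adjusted p = 0.481) with shared reads counted once, and without MIT-Empty replicates 2 and 4 together it was -0.70 (edgeR adjusted p = 0.0772). The call was also lost without MIT-BATF replicate 2, MIT-BATF replicate 4 or MIT-Empty replicate 2 (edgeR adjusted p = 0.0514, 0.0543 and 0.0521). Salmon placed 68.8% of its counts in MIT-BATF and 67.8% in MIT-Empty on Slc38a6-202, a short coding transcript of 5 exons. Slc38a6-206, the coding transcript with 16 exons, averaged 1.395% of its counts in MIT-BATF and 0.508% in MIT-Empty. The level of Slc38a6 is therefore mostly that of transcripts with fewer exons. Sesn3, a sestrin that restrains mTORC1, was at 148 ± 39.5 CPM in MIT-BATF against 91.1 ± 9.57 CPM in MIT-Empty (a log2 fold change of 0.70, adjusted p = 0.0352 by edgeR; 0.157 with shared reads counted once). Gls2, a mitochondrial glutaminase, was at 3.25 ± 0.93 CPM in MIT-BATF against 7.12 ± 2.49 CPM in MIT-Empty (a log2 fold change of -1.11, adjusted p = 0.0426 by edgeR; 0.272 with shared reads counted once). On deposited counts the Sesn3 call was lost without any 1 MIT-Empty library and without MIT-BATF replicate 2 or 4 (edgeR adjusted p of 0.0212 to 0.0949 over all single omissions), and the Gls2 call was lost without any 1 library except MIT-Empty replicate 4 (edgeR adjusted p of 0.0341 to 0.104).

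List medians ran from -0.22 to 0.18 on the log2 fold change scale. The 20 tRNA synthetases lay between -0.25 and 0.33, with a median of 0.01 and 0 at an unadjusted p under 0.05 in either fit. Of 8 serine and one-carbon genes, 1 had a positive estimate on deposited counts and 2 with shared reads counted once, and the median was -0.22 in both fits. At an unadjusted p under 0.05 by edgeR there were 4 on deposited counts (18.1% of all genes) and 0 with shared reads counted once (10.6% of all genes). These 4 include Shmt1, which had a positive estimate (log2 fold change 0.51, adjusted p = 0.188 by edgeR). On protein-coding transcripts alone, 1 of 8 passed by edgeR on deposited counts, against 3.48% of all genes, and it was higher in MIT-BATF. Phgdh, which starts serine synthesis, was at 50.1 ± 9.47 CPM in MIT-BATF against 68.3 ± 7.49 CPM in MIT-Empty, a log2 fold change of -0.44 (adjusted p = 0.131 by edgeR), and Psat1, the next enzyme, had -0.40 (adjusted p = 0.184 by edgeR). In the ATF4 list (12 tested, 8 with a positive estimate, median 0.18), Cebpb had 0.82 (adjusted p = 0.236 by edgeR) and Sesn2 0.74 (adjusted p = 0.313 by edgeR). In the other direction, Nupr1 had -1.42 and Ddit4 -0.57 (adjusted p = 0.359 and 0.33 by edgeR). With shared reads counted once, the 1 gene of this list at an unadjusted p under 0.05 was Ddit4 (-0.76, unadjusted p = 0.0498 by edgeR). In the cystine and glutathione list (13 tested, 9 with a positive estimate, median 0.04), Srxn1 had 0.80 and Gclm 0.32, with adjusted p of 0.321 and 0.357 by edgeR. Cth had -1.76 and Hmox1 -1.02, with adjusted p of 0.359 and 0.501 by edgeR.

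Other genes with the smallest p of their lists also missed the threshold. Dbt, a subunit of the branched-chain keto acid dehydrogenase, was at 7.16 ± 2.13 CPM in MIT-BATF against 3.73 ± 0.67 CPM in MIT-Empty (a log2 fold change of 0.94, adjusted p = 0.0557 by edgeR; 0.224 with shared reads counted once). Mios, a subunit of the GATOR2 complex that activates mTORC1, was at 7.26 ± 0.31 CPM in MIT-BATF against 10.8 ± 1.77 CPM in MIT-Empty (a log2 fold change of -0.57, adjusted p = 0.099 by edgeR). Of the 33 mTORC1 sensing genes tested, 21 had a positive estimate on deposited counts. Among these, Rraga had 0.57 and Rptor 0.71 (adjusted p = 0.107 and 0.123 by edgeR). Slc15a4, which carries histidine and peptides out of lysosomes, differed by -0.51 on the log2 scale (adjusted p = 0.306 by edgeR). Among the synthetases, Aars had 0.33 and Gars -0.20, with adjusted p of 0.367 and 0.527 by edgeR.

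**Figure D5:**
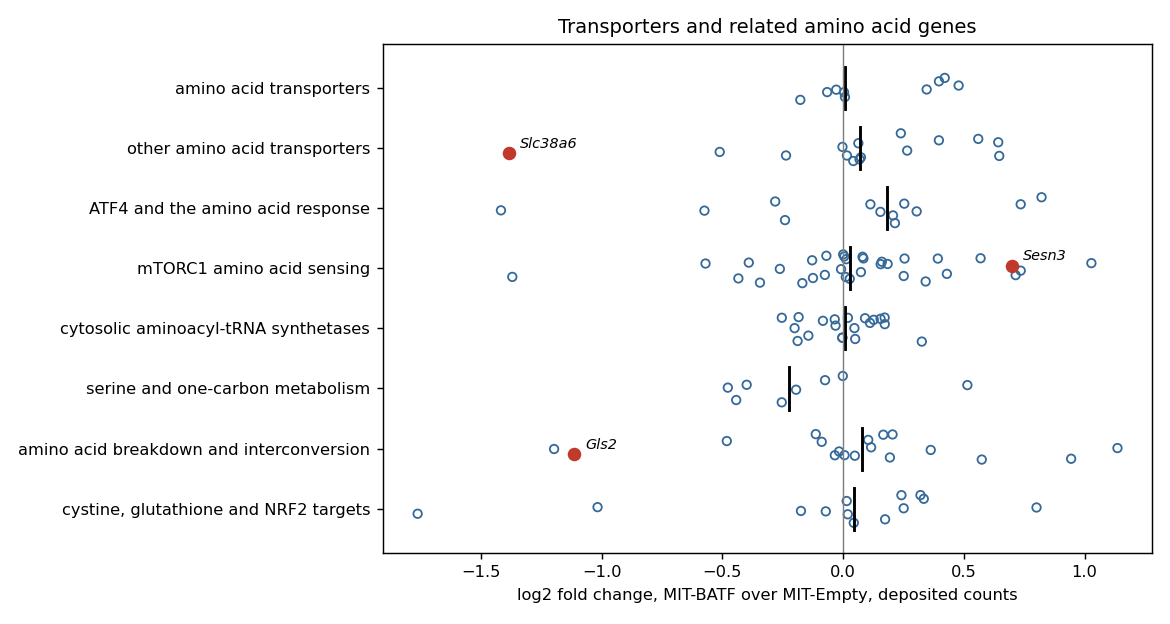
Log2 fold change of MIT-BATF over MIT-Empty from deposited counts for each gene tested in the 10-gene list (top) and in 7 related lists, with a vertical bar at each median. Filled points passed an adjusted p of 0.05 by edgeR with deposited counts, and none did with shared reads counted once. Slc38a6 (-1.38), Sesn3 (0.70) and Gls2 (-1.11) are the filled points.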

How the data were processed

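RNA-seq was available for 10 mice, 5 MIT-BATF and 5 MIT-Empty, grouped by the sample labels. The authors aligned reads to mm10 in the nf-core/rnaseq pipeline, with transcript quantification by Salmon (version not given in the sources read). Deposited values are estimated counts, which can be fractional, and the authors' TPM values, which are scaled to length and library total and were used for levels between genes only. Of 112092 transcripts, 305 without a match in GENCODE release M21 were left out (0.0617% to 0.089% of counts). Estimated counts were summed per gene, rounded, and tested in edgeR 4.0.16 by its quasi-likelihood test (TMM normalization, filterByExpr, group only, Benjamini-Hochberg over all genes, threshold 0.05) in R 4.3.3, after a check on simulated counts. CPM values use TMM-scaled library sizes. In a second fit, each contained library was subtracted from the library holding it. Alternatives were DESeq2 1.42.0, limma 3.58.1 voom, RLE factors, other filters, length offsets, a replicate block, left-out libraries and, added after seeing the data, protein-coding transcripts only. Genes named are the 10 members, list genes past the threshold or with the smallest p, Batf, Thy1 and, by the same rule, the most abundant marker of each other cell type. Xcr1, Rraga, Rptor, Shmt1, Ddit4, Nupr1, Cth and Hmox1 were added after their values were seen, to name genes of both directions. Members and lists were chosen with earlier results of these data known. The paper describes each replicate as cells sorted from a separate mouse, and whether the nested libraries hold separate reads was not examined. Intervals cover sampling error only. For the edgeR intervals this includes the spread between libraries, and for the exact interval of Slc43a1 it is counting error alone. Depth limits genes with few counts. Python 3.11.15, pandas 2.3.3 and matplotlib 3.10.9 served for tables and figures.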

Additional observations from a re-analysis of the deposited data

Results flagged for a closer look

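Among 70 groups of 5 values checked (each gene named by the rule above and the mitochondrial share, in each group), 5 held 1 library farther from the rest than Dixon's criterion allows, where chance gives about 1 in 20 groups. Slc43a1 was at 0.0464 CPM (2 counts) in MIT-BATF replicate 3 and at 0 in the other MIT-BATF libraries. Batf was at 12.4 CPM in MIT-BATF replicate 1, the lowest of its group, where the next library had 22.6 CPM. The same library had the mitochondrial share of 33.2%, where the next had 15.1%. Dbt was at 2.57 CPM in MIT-Empty replicate 5, where the next had 3.81 CPM. The globin gene Hba-a2 was at 238 CPM in MIT-BATF replicate 2, where the next had 61.1 CPM.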

How the results depend on the processing

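With 33 to 36 settings per result, the count of transporter genes called was 0 except 1 by DESeq2 (Slc3a2) and 1 with no filter (Slc43a1). Leaving out each library gave 0 to 1 on deposited counts and 0 to 0 with shared reads counted once. Slc3a2, Slc1a5, Slc7a5 and Slc1a4 stayed above 0 and Slc38a1 below 0 in every setting run, with Slc3a2 between 0.39 and 0.64. Related genes called numbered 3 on deposited counts, 5 by DESeq2, and 0 with shared reads counted once (also by DESeq2, with a replicate block and on protein-coding transcripts), without the contained libraries and without the containing libraries. Leaving out each library gave 0 to 3 and, with shared reads counted once, 0 to 0. The direction of the related genes called also shifted with the setting on deposited counts. By the main edgeR fit 1 was higher and 2 lower, and by DESeq2 2 were higher and 3 lower. With length offsets or no filter 3 were higher and 1 lower, and on protein-coding transcripts 2 were higher and 1 lower. Over all genes, 540 were called, 916 by DESeq2, 903 with no filter, 140 with shared reads counted once, 291 so by DESeq2, 173 so with a replicate block and 101 so on protein-coding transcripts, 96 without the contained libraries, 15 without the containing libraries and 259 without MIT-Empty replicates 2 and 4 together. Leaving out each library gave 287 to 772, and 69 to 148 with shared reads counted once. Fewer libraries enter the fits without contained or containing libraries, and the cause of the other shifts was not tested.

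Log2 fold changes near 0 changed sign. Slc7a6 was 0.054 with shared reads counted once (0.054 by DESeq2, 0.029 with a replicate block), 0.025 with no filter and 0.076 without the contained libraries. Slc7a1 was -0.015 at a mean count of at least 50 and -0.17 without the containing libraries, and Slc38a2 was -0.0097 at a mean count of at least 50. Slc7a11 was 0.0025 with length offsets, 0.30 without the contained and 0.30 without the containing libraries. Thy1 was -0.091 with shared reads counted once (-0.091 by DESeq2, -0.143 with a replicate block, -0.087 on protein-coding transcripts) and -0.21 without the contained libraries. Leaving out each library gave -0.082 to 0.077 for Slc7a1 (-0.085 to 0.21 with shared reads counted once), -0.11 to 0.036 for Slc7a6 (-0.082 to 0.14), -0.36 to 0.15 for Slc7a11 (-0.33 to 0.21), -0.081 to 0.12 for Slc38a2 (-0.039 to 0.17), -0.58 to -0.096 for Batf (-0.46 to 0.11) and -0.013 to 0.23 for Thy1 (-0.20 to 0.058).

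Whether the replicate numbers pair the samples could not be decided. Deviations of same-numbered libraries, with shared reads counted once, correlated at 0.123, -0.088, 0.349, 0.015 and 0.057 for replicates 1 to 5. Only for replicates 1 and 3 did each library correlate best with its own number in both directions. The nesting of replicate 4 in 2 and of 5 in 3 was the same in both groups. With a replicate block, 474 genes were called on deposited counts, 0 of them members and 2 of the related lists. Slc1a4, Slc7a11 and Slc43a1 are limited by depth.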
